A study of Mus musculus with 6 samples.

Results

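Smooth muscle contractile genes were followed in the carotid body, the small sensor of blood oxygen beside the carotid sinus, through 10 genes chosen by name among the 18193 that the arrays name singly: Acta2, Tagln, Cnn1, Actg2, Des, Smtn, Lmod1, Myocd, Mylk and Pdgfrb. Every Affymetrix probe set annotated to one of these symbols alone was taken, which gave 17 of the 45101 probe sets on the array. RNA came from male A/J and male DBA/2J mice, both inbred, aged 28 days and untreated, with no engineered allele named in the labels. Each strain had 3 arrays, and each array carried the carotid bodies of 18 to 21 mice as 1 pool, so errors here measure the spread over pools, not over mice. The question is how the strains compare in carotid body gene expression. The tissue held the markers of its chemosensory type I cells on every array, with Th, the enzyme that starts catecholamine synthesis, at 2760 to 8416 signal units.

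Smooth muscle cells form the wall of the arterioles that feed the carotid body, and pericytes line its dense capillary bed. In these mural cells, calcium and calmodulin activate myosin light chain kinase, which phosphorylates the regulatory light chain of smooth muscle myosin so that it pulls on filaments of smooth muscle actin. Serum response factor (SRF) binds the CArG box in the promoters of many contractile genes, and its coactivator myocardin switches these genes on in smooth muscle. Platelet-derived growth factor receptor beta marks pericytes, smooth muscle cells and some fibroblasts. In pooled tissue, fewer cells of a type and less RNA per cell cannot be told apart.

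The CArG box, which is 2 C, then 6 bases that are each A or T, then 2 G, reads in the same form on both strands. It was looked for in promoter windows of 300 bases (250 before and 50 after the start) from RefSeq, build GRCm38.p6, which held 6 of the 10 genes (Acta2, Cnn1, Des, Lmod1, Mylk and Smtn). The array data name no build of their own. The promoters of 3 actins, 250 bases up to the start and all on the minus strand, are shown because smooth muscle, skeletal muscle and cardiac actin share this element and differed in how far they changed between the strains. Capitals mark CArG boxes, in the strict form or with 1 G or C among the 6 central bases, and the windows lie at chr19:34255374-34255623, chr8:123894776-123895025 and chr2:114052876-114053125.
Acta2 (smooth muscle): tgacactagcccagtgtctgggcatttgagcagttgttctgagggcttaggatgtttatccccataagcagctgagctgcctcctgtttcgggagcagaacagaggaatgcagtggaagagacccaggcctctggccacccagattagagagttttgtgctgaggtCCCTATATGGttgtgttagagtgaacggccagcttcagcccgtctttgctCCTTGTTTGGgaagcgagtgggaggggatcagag
Acta1 (skeletal muscle): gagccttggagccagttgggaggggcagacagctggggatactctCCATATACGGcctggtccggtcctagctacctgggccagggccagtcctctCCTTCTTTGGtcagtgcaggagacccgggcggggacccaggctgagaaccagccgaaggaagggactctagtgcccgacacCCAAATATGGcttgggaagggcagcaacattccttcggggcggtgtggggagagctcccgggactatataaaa
Actc1 (cardiac): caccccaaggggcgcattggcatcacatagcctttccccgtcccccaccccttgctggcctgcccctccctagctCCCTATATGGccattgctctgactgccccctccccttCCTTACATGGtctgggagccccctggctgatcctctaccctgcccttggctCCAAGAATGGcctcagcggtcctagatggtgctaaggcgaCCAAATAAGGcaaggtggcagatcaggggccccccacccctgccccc

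The Acta2 window held 2 boxes of the looser form, CCCTATATGG starting at -84 and CCTTGTTTGG at -34, and none of the strict form. Positions count from the start on which each window is built. The Acta2 gene, on the minus strand, is annotated from further upstream, at 34255585, so both boxes lie inside the annotated gene. The Acta1 window held 3 boxes, of which CCAAATATGG at -73 was strict, and the Actc1 window held 4, of which CCAAATAAGG at -47 was strict. The same 10 bases, CCCTATATGG, stood in the Acta2 and the Actc1 promoter. The windows of Cnn1, Des, Lmod1, Mylk and Smtn held neither form, which says only that these letters are not in that window. The Mylk window (34784700 to 34784999) lies inside the annotated gene, which starts at 34745199, so that outer start was not searched. A strict box was present in 1.63% of all 32851 promoter windows, either form in 9.98% and at least 2 boxes in 0.822%.

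Contractile genes of smooth muscle were not called as different between the strains, apart from 1 probe set of desmin. Of the 17 probe sets, 14 passed the filter on dim values and were tested, 1 was lower in DBA/2J (Des 1426731_at), 0 were higher and 13 were not called by limma at an adjusted p of 0.05. Over all 27022 probe sets tested, 3.27% were called in either direction, 1.41% as lower and 1.86% as higher in DBA/2J. An unadjusted p under 0.05 was found for 5 of the 14 and for 15.3% of all probe sets. The overall count of 883 called probe sets ran from 341 (without DBA/2J array 1) to 1351 (without DBA/2J array 2) when 1 array was left out, while the member count was 1 each time.

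**Figure D1:**
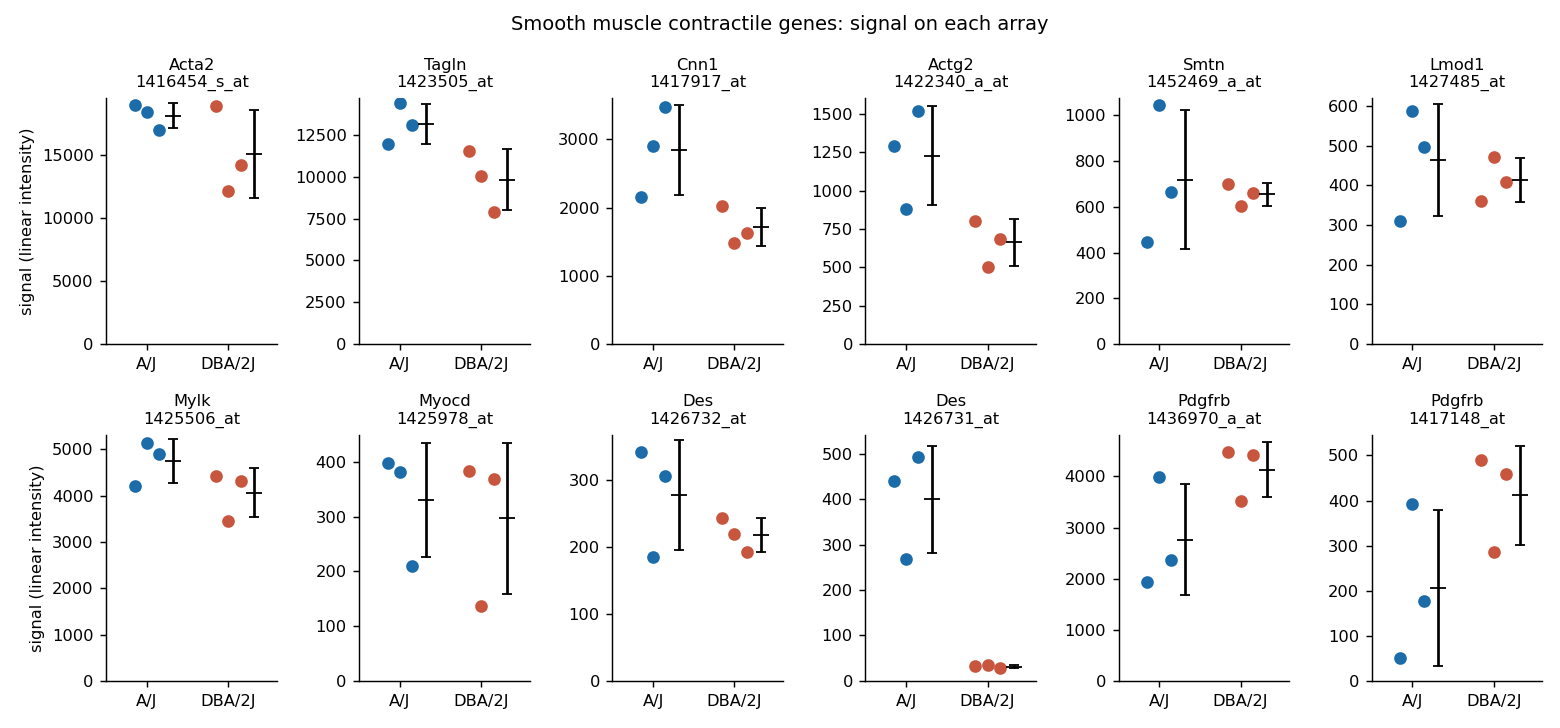
Signal (linear intensity, each panel from 0) of the brightest probe set of each gene, and of both kept probe sets of Des and Pdgfrb, on the 3 A/J (blue) and 3 DBA/2J (red) arrays, left to right in array order, with mean and SD in black. Des 1426731_at lies at 268 to 493 for A/J and at 27.8 to 34 for DBA/2J, while the other panels differ far less between the strains.

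Acta2 encodes smooth muscle actin, the main actin of arteriolar muscle. Its bright probe set, 1416454_s_at, read 18916, 18385 and 16953 on the A/J arrays and 18868, 12088 and 14169 on the DBA/2J arrays. The strains overlapped, since DBA/2J array 1 lay level with the A/J arrays and the other DBA/2J arrays below them. The A/J mean was 18084 ± 1015 and the DBA/2J mean 15041 ± 3473 (SD, n = 3), a log2 difference of -0.29 (all log2 differences here are on the scale of log2(signal + 16), and a negative one means lower in DBA/2J), with a 95% interval of -0.69 to 0.11 and an adjusted p of 0.51. The suffix _s_at marks a set whose probes can match transcripts of more than 1 gene, and the actins are near-identical, so this signal cannot be given to Acta2 with certainty. A dimmer set, 1444105_at, had a log2 difference of 0.25 (adjusted p = 0.728), and the dimmest, 1456658_at, was below the filter with signals of 82.7 to 122.9.

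Actg2, the smooth muscle actin best known from the gut and other viscera, was the member after desmin with the largest difference towards A/J, and it did not pass the test. Its probe set read 1288, 880 and 1516 in A/J and 805, 501 and 686 in DBA/2J. Every DBA/2J array lay below every A/J array, with a narrow gap between A/J array 2 and DBA/2J array 1. The means were 1228 ± 322 and 664 ± 153 (SD, n = 3), 1.85-fold apart, with a log2 difference of -0.86 (95% interval -1.45 to -0.27) and an adjusted p of 0.138. Of the 9 pairs of 1 array from each strain, 7 differed by at least 1.5-fold, so Actg2 meets the series' own rule (6 of 9 pairs at 1.5-fold and a p under 0.05) when the unadjusted limma p stands in for its test. Of all probe sets, 10.1% meet it, and of the 14 kept member sets only Actg2 and Des 1426731_at did.

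Among the proteins that bind actin filaments, calponin and transgelin leaned the same way without being called. Cnn1, calponin, which binds actin and restrains the myosin motor, read 2158, 2901 and 3472 in A/J and 2026, 1487 and 1629 in DBA/2J. The strains did not overlap, but A/J array 1 was only just above DBA/2J array 1. Its means of 2843 ± 659 and 1714 ± 279 (SD, n = 3) gave a log2 difference of -0.71 (95% interval -1.21 to -0.21, adjusted p = 0.149). Tagln, transgelin or SM22, a widely used early marker of smooth muscle, read 11963, 14371 and 13095 in A/J and 11507, 10036 and 7877 in DBA/2J. Here too all A/J arrays were above all DBA/2J arrays, with A/J array 1 close to DBA/2J array 1. Its log2 difference was -0.44 (95% interval -0.82 to -0.05, adjusted p = 0.262).

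Absence of overlap with DBA/2J lower was seen in 4 of the 14 kept member sets (Actg2, Cnn1, Tagln and Des 1426731_at) and in 9.54% of all probe sets. None of the 14 had all DBA/2J arrays higher, against 11.5% of all probe sets. DBA/2J array 2 was the lowest of the 6 arrays for 5 of the 10 leading probe sets (Acta2, Cnn1, Actg2, Myocd and Mylk), where the leading set is the brightest of a gene. The highest array was an A/J array for 9 of the 10, the exception being Pdgfrb.

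Smtn and Lmod1 varied more among the A/J pools than between the strains. Smtn, smoothelin, a cytoskeletal protein of fully contractile smooth muscle, read 446, 1045 and 664 in A/J and 701, 602 and 661 in DBA/2J. The A/J arrays spanned a 2.34-fold range that enclosed all the DBA/2J arrays. The log2 difference was -0.05 (95% interval -0.70 to 0.60, adjusted p = 0.964), and it turned to 0.26 without A/J array 2. Lmod1, leiomodin, which starts new actin filaments in smooth muscle, read 309, 587 and 495 in A/J and 360, 472 and 408 in DBA/2J. Again the A/J range enclosed the DBA/2J arrays, and array 1 was the lowest and array 2 the highest of the A/J arrays for both genes. The log2 difference of Lmod1 was -0.12 (95% interval -0.71 to 0.46, adjusted p = 0.888), and 0.066 without A/J array 2.

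Mylk, the myosin light chain kinase that starts contraction, was bright on every array and was not called. Its bright set, 1425506_at, read 4206, 5128 and 4907 in A/J and 4424, 3463 and 4311 in DBA/2J. These ranges overlapped, and none of the 9 array pairs differed by 1.5-fold. The log2 difference was -0.23 with a 95% interval of -0.61 to 0.16 (adjusted p = 0.627), and a second set, 1425505_at, gave 0.08 (95% interval -0.49 to 0.64). The third set, 1425504_at, was below the filter, with signals from 27.5 to 101.3.

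Myocd, the SRF coactivator that defines the smooth muscle programme, was held down on 1 array of each strain. Its set 1425978_at read 398, 381 and 210 in A/J and 383, 137 and 369 in DBA/2J. A/J array 3 and DBA/2J array 2 were low and the other 4 arrays were close together. The log2 difference was -0.22 (95% interval -1.12 to 0.68, adjusted p = 0.864), and it was 0.23 without DBA/2J array 2. The other Myocd set was dim on all arrays, at 15.2 to 27.9, and was not tested.

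**Figure D2:**
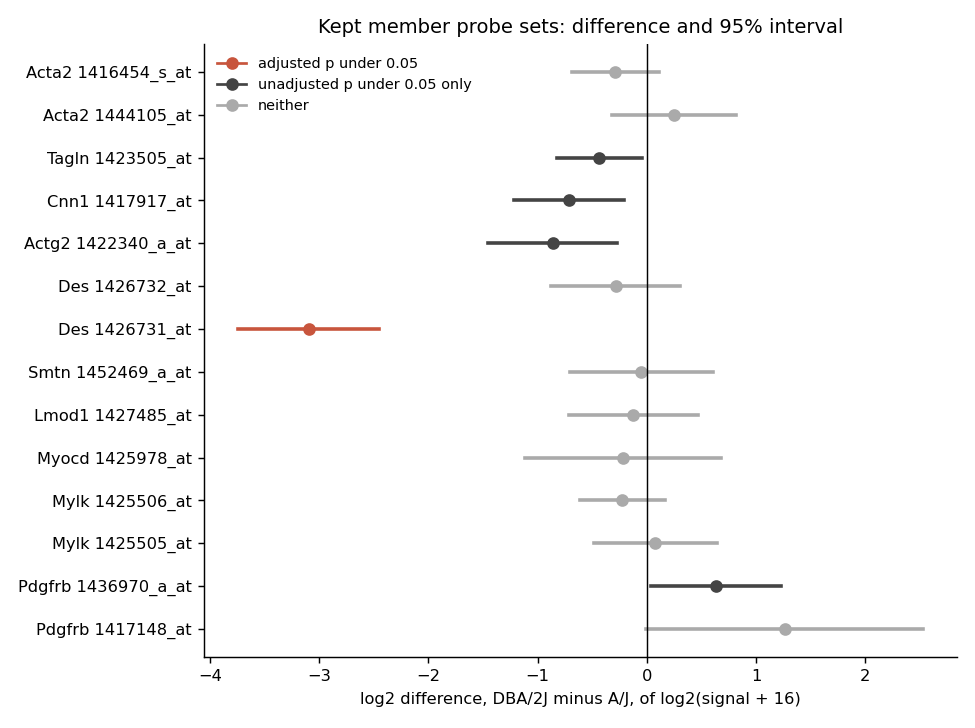
Log2 difference (DBA/2J minus A/J of log2(signal + 16)) with its 95% interval from limma for the 14 kept probe sets of the 10 genes. Only Des 1426731_at has an adjusted p under 0.05 (red); Tagln, Cnn1, Actg2 and Pdgfrb 1436970_a_at have an unadjusted p under 0.05 alone (dark grey).

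Des encodes desmin, the intermediate filament protein that links contractile units in smooth, cardiac and skeletal muscle alike, and 1 of its 2 probe sets was called. Set 1426731_at read 439, 268 and 493 in A/J and 32.3, 34 and 27.8 in DBA/2J. All A/J arrays stood far above all DBA/2J arrays, with array 2 the lowest in A/J. The means were 400.2 ± 118 and 31.4 ± 3.2 (SD, n = 3), 12.8-fold apart, with a log2 difference of -3.09 (SE 0.29, 95% interval -3.74 to -2.45, adjusted p = 0.000687). This set passed the filter through its A/J signal, and since no detection calls were used, it is unknown whether its DBA/2J signal is above background. All 3 DBA/2J signals lay under the filter level, which corresponds to a signal of 114, so the test shows that this set was lower in DBA/2J, and the fold and log2 difference are measured values that background could make too small. The log2 difference was -3.59 with a pseudocount of 1 and -2.25 with 64.

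The leading Des set, 1426732_at, annotated with the same accession, read 341, 184 and 305 in A/J and 243, 219 and 192 in DBA/2J. Here A/J array 2 was the lowest of all 6 arrays and the strains overlapped. The log2 difference was -0.29 (95% interval -0.88 to 0.31, adjusted p = 0.695), and with A/J arrays 1 and 3 left out it was 0.22. The mean of both sets had a log2 difference of -1.69 (adjusted p = 0.00758), which also rests on the dim DBA/2J signals of 1426731_at. The difference between the changes of the 2 sets was not tested. Probe sequences, and so the places of the 2 sets on the transcript, were not examined. The call therefore belongs to set 1426731_at and not to desmin RNA as a whole.

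Skeletal muscle genes moved in the same direction as Des 1426731_at. Of 27 tested skeletal muscle markers, 23 fell, 0 rose and 4 were not called, with a median log2 difference of -4.90 against 0.03 over all genes. Over all genes, 1.6% were called as lower and 2.17% as higher. Ckm, for example, read 89 to 172.2 in DBA/2J beside a filter level of 114, and the lowest signal of any marker was 3.5. Markers as dim as this in DBA/2J passed the filter through A/J, and background could make their log2 differences too small. Together they gave 0.213% to 0.563% of the total on A/J arrays and 0.0123% to 0.0219% on DBA/2J arrays, and no marker was listed at 0. A/J array 2 had the least of the A/J arrays (0.213%), as it had for both Des sets. On that array alone against the 3 DBA/2J arrays, the log2 difference of Des 1426731_at was -2.59. That fit has 1 A/J array and assumes it to vary like the DBA/2J arrays, so only the size of the difference is given. The part of skeletal muscle in the desmin difference was not tested. Among the A/J arrays, Cnn1 and Tagln were lowest on array 1, which had the most skeletal muscle signal (0.563%), and Actg2 was lowest on array 2, which had the least. The part of skeletal muscle in these genes was not tested either.

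**Figure D3:**
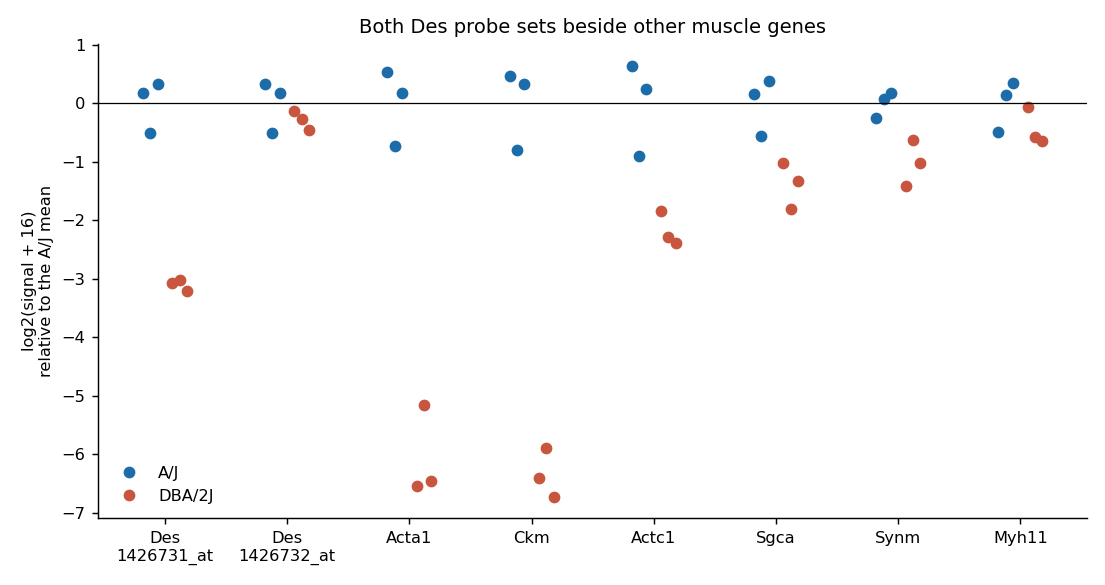
Values of log2(signal + 16) relative to each probe set's A/J mean on the 3 A/J (blue) and 3 DBA/2J (red) arrays, for both Des sets and 6 other muscle genes. Des 1426731_at drops by about as much as between Actc1 (-2.17) and Acta1 (-6.05), while Des 1426732_at and Myh11 stay within 1 log2 unit.

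The other actins split by muscle type. Acta1 of skeletal muscle fell from 8963 ± 3627 to 124.6 ± 82.1 (SD, n = 3; log2 difference -6.05, adjusted p = 0.000205) and Actc1, the cardiac actin also used by immature skeletal muscle, from 3279 ± 1563 to 663 ± 141 (log2 difference -2.17, adjusted p = 0.0138). The DBA/2J signals of Acta1 (74.4, 219.3 and 80.1) lay around the filter level of 114, so Acta1 passed through its A/J signal, and background could make its difference too small. The cytoplasmic actins, present in every cell, were not called: Actb had -0.20 (adjusted p = 0.647) and Actg1 had -0.13 (adjusted p = 0.762). The promoter of Actg1 held 1 strict CArG box, CCATATATGG at -90. Actg1 and Acta2, with log2 differences of -0.13 and -0.29, and Acta1 and Actc1 thus all had boxes in this window. Of 10 tested heart muscle markers, Actc1 fell, 0 rose and 9 were not called, beside 1.6% of all genes called as lower and 2.17% as higher. Myl7, Nppa, Tnnt2 and Tnni3 were below the filter.

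Pdgfrb, the receptor through which endothelial PDGF recruits pericytes, was the single member whose leading set leaned towards DBA/2J. Set 1436970_a_at read 1944, 3991 and 2360 in A/J and 4472, 3520 and 4413 in DBA/2J. A/J array 2 lay within the DBA/2J range and the other A/J arrays lay below it. The means were 2765 ± 1082 and 4135 ± 533 (SD, n = 3), with a log2 difference of 0.64 (95% interval 0.04 to 1.23) and an adjusted p of 0.285, which became 0.0396 (log2 difference 0.78) with array weights. The dimmer set, 1417148_at, read 50.2, 392.9 and 177.1 in A/J and 490.6, 285.4 and 458.3 in DBA/2J. It showed the same order of arrays within A/J, a 7.83-fold range there, and a log2 difference of 1.26 (95% interval -0.0030 to 2.53, adjusted p = 0.327). Against A/J array 2 alone, the leading set differed by 0.04.

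Most other genes of the contractile apparatus were not called. Of 43 tested genes, Pgm5 and Sgca fell, Csrp1 rose and 40 were not called, with a median log2 difference of -0.25 and 34 of 43 negative (47% of all genes were negative, 3.77% of all genes were called, 1.6% as lower and 2.17% as higher). Pgm5, a phosphoglucomutase relative found at muscle adhesion sites, fell from 764 ± 71.7 to 266 ± 59.4 (SD, n = 3; log2 difference -1.48, adjusted p = 0.00661). Sgca, the alpha-sarcoglycan of the striated muscle membrane, fell from 907 ± 289 to 334 ± 90.9 (log2 difference -1.38, adjusted p = 0.0407). Csrp1, a LIM protein abundant in smooth muscle, rose from 764 ± 201 to 1809 ± 386 (log2 difference 1.24, adjusted p = 0.027), and its other set gave 0.85 without being called (adjusted p = 0.4). The count of 3 became 1 without DBA/2J array 1 and 1 without DBA/2J array 3. Csrp1 was not called without A/J array 1, A/J array 2, DBA/2J array 1 or DBA/2J array 3, when 0 of the 43 were called as higher.

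The motor itself was not called. Myh11, the smooth muscle myosin heavy chain, read 2677, 4181 and 4792 in A/J and 3606, 2514 and 2404 in DBA/2J, which overlapped (log2 difference -0.43, adjusted p = 0.495). Myl9, the regulatory light chain that Mylk phosphorylates, had a log2 difference of -0.20 (adjusted p = 0.744). Nearest to the threshold below the called genes were Synm, an intermediate filament protein that partners desmin (-1.02, adjusted p = 0.0602, with its dimmer set called at -1.50, adjusted p = 0.0264), Nexn, an actin-binding protein (-0.66, adjusted p = 0.139), Smtnl2 (-0.96, adjusted p = 0.193) and Hspb6, a small heat shock protein of muscle (-1.24, adjusted p = 0.195). Synm read 1219 to 1641 for A/J and 533 to 939 for DBA/2J, with no overlap. Hspb6 overlapped, since A/J array 2 read 807 beside 2164 and 3120 on the other A/J arrays and 579 to 836 in DBA/2J.

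**Figure D4:**
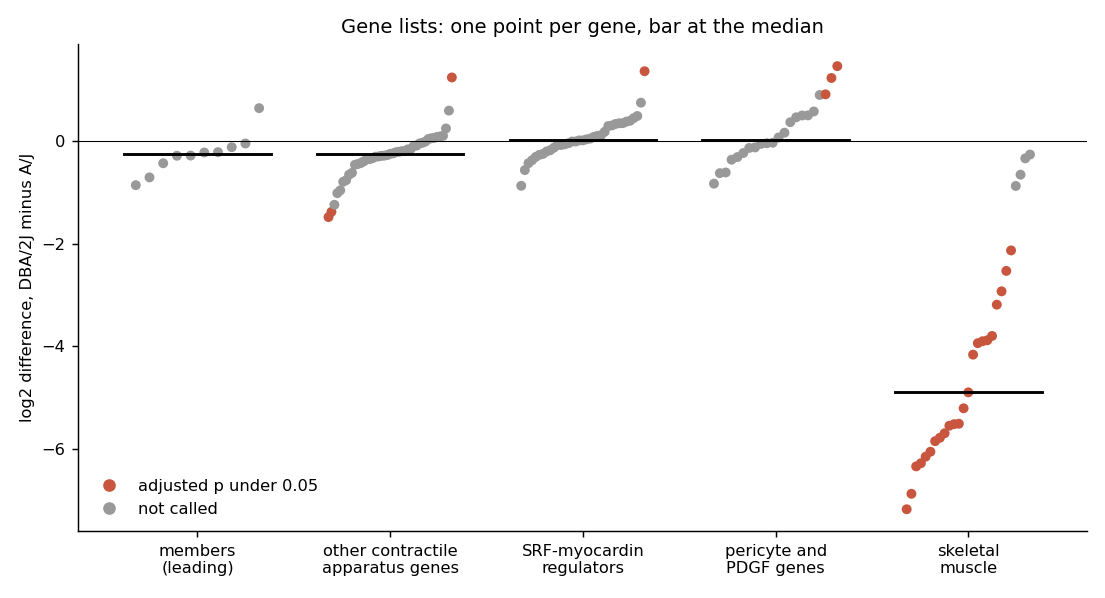
Log2 difference (DBA/2J minus A/J) of each tested gene, sorted within its list, for the 10 members by their leading set and 4 lists, with the list median as a bar and called genes in red. The members (median -0.26) and the other contractile genes (median -0.25) lie near 0 beside the skeletal muscle markers (median -4.90).

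Regulators of the smooth muscle programme gave 1 call, near the share of calls over all genes (3.77%, with 2.17% as higher and 1.6% as lower). Of 35 tested genes of the SRF and myocardin network, Tcf21 rose, 0 fell and 34 were not called, with a median of 0.01. Tcf21, a transcription factor of mesenchymal progenitors, rose from 102 ± 18.1 to 287 ± 53.4 (SD, n = 3; log2 difference 1.36, adjusted p = 0.0182). Its A/J signals of 85.8 to 121.4 lay around the filter level of 114, so it passed the filter through its DBA/2J signal. Its other set had 0.05, and the gene was not called without A/J array 1, A/J array 2 or DBA/2J array 1, when 0 of the 35 were. Srf itself, by its brighter set 1418255_s_at, read 651, 908 and 648 in A/J and 592, 537 and 621 in DBA/2J. These did not overlap, but the log2 difference was only -0.31 (adjusted p = 0.554). The other Srf set, 1418256_at, overlapped between the strains and had -0.07 (adjusted p = 0.932). Among the uncalled were also Hey1, a Notch target (0.74, adjusted p = 0.107), Abra, an activator of SRF in muscle (-0.87, adjusted p = 0.175), Mef2a (0.49, adjusted p = 0.237) and Tbx18, a factor of mural cells (-0.57, adjusted p = 0.353).

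Most genes of pericytes and PDGF signalling were not called. Of 22 tested, Rgs4, Gucy1b1 and Pdgfrl rose, 0 fell and 19 were not called, against 2.17% of all genes called as higher and 3.77% in either direction. The differences were positive for 11 genes and negative for 11, with a median of 0.02. Among uncalled pericyte markers, named after their values were seen, Mcam, an adhesion molecule, had -0.61, Cspg4, the NG2 proteoglycan, -0.31, Notch3, a receptor of mural cells, -0.05 and Ednrb, an endothelin receptor, -0.37. Uncalled genes on the positive side included Ndufa4l2 (0.89), Abcc9 (0.57) and Rgs5 by its brightest set (0.36). Rgs4, a brake on G protein signalling, rose from 3530 ± 66.3 to 8431 ± 1919 (SD, n = 3; log2 difference 1.23, adjusted p = 0.0106), and its second kept set had 1.20 (adjusted p = 0.0693). Gucy1b1, part of the soluble guanylate cyclase through which nitric oxide relaxes mural cells, had 1.46 (adjusted p = 0.0121) with its other set at 0.43, and Pdgfrl, a receptor-like relative of Pdgfrb, had 0.91 (adjusted p = 0.0323). The count of 3 became 0 without A/J array 1 or DBA/2J array 1, 1 without A/J array 3 and 5 without DBA/2J array 2. On the A/J arrays the list summed to 0.132% to 0.153% of all signal, and on the DBA/2J arrays to 0.168% to 0.2%. That sum is weighted to bright genes such as Rgs5, Rgs4 and Abcc9. The mean log2(signal + 16) of the 22 genes overlapped between the strains, at 10.16, 10.32 and 10.30 in A/J and 10.52, 10.26 and 10.51 in DBA/2J.

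Rgs5, a pericyte marker that the carotid body's type I cells also express, depended on the probe set. Its brightest set, 1417466_at, read 13298, 15044 and 11768 in A/J and 19396, 18130 and 14293 in DBA/2J, which overlapped and gave a log2 difference of 0.36 (adjusted p = 0.339). The other 3 sets were all called, at 2.02 (1420941_at), 2.37 (1420942_s_at) and 4.40 (1420940_x_at). The list of type I cell markers includes Rgs5 by its brightest set. Without Rgs5, 10 of 16 type I markers rose, 0 fell and 6 were not called. Over all genes, 2.17% were called as higher and 1.6% as lower. The 16 markers summed to 0.117% to 0.14% of all signal on A/J arrays and to 0.244% to 0.279% on DBA/2J arrays. The part of type I cells in the Rgs5 values was not tested. The ligand Pdgfb had 0.16 (adjusted p = 0.825), Ndufa4l2 0.89 (adjusted p = 0.0667), the potassium channel subunit Abcc9 0.57 (adjusted p = 0.21), Vtn -0.63 (adjusted p = 0.114) and Pdgfc -0.83 (adjusted p = 0.259).

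Most markers of 4 other cell types were not called, beside 3.77% of all genes called, 1.6% as lower and 2.17% as higher. An unadjusted p under 0.05 was found for 2228 of all 13006 genes. Of 12 endothelial markers 0 were called by limma, 4 had an unadjusted p under 0.05, and the nearest were Kdr, the VEGF receptor (0.69, adjusted p = 0.0982), Egfl7 (0.53), Flt1 (0.61) and Cldn5 (0.55). Of 12 fibroblast markers Fbln2 rose (1.09, adjusted p = 0.0349) and 11 were not called, with Fbln1 at 0.81, Col1a1 at -0.43, Postn at -0.37 and Pi16 at -0.40. Of 9 adipocyte markers Fabp4 (-0.77) and Ucp1 (-1.31) fell and 7 were not called, and 5 had an unadjusted p under 0.05. Of 8 glial markers 0 were called by their brightest set and 5 had an unadjusted p under 0.05. The median log2 difference was -0.56, with 7 of 8 negative. Among the dimmer sets of Mbp, 1454651_x_at was called by limma at -1.16 (adjusted p = 0.0424), while 1425264_s_at had 0.46 (adjusted p = 0.267). As a share of all signal, the endothelial markers summed to 0.0338% to 0.0383% on A/J arrays and to 0.0402% to 0.058% on DBA/2J arrays, and the fibroblast markers to 0.391% to 0.407% and 0.334% to 0.401%. The adipocyte markers summed to 0.209% to 0.292% on A/J arrays and 0.125% to 0.181% on DBA/2J arrays, and the glial markers to 0.15% to 0.187% and 0.116% to 0.132%.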

How the data were processed

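RNA from pooled carotid bodies was extracted with Trizol and amplified in 2 rounds of cDNA synthesis with in vitro transcription and hybridised to Affymetrix Mouse 430 2.0 arrays, per the labels' protocols and the series' design text. The values the authors deposited are linear intensity signals, with the software not given in the sources used here. Their 2% trimmed mean is 500 on every array, and medians run from 163.5 to 183.1. Amplification from the poly(A) tail can make probe sets far from the 3' end read low, and no detection calls were used. Arrays of a strain are separate pools, per the labels.

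Gene symbols were taken from GEO's annotation of the platform and brought up to date by gene ID with RefSeq GRCm38.p6. The 64 Affymetrix controls were left out, values were taken as log2(signal + 16), and the upper 60% by mean were kept (27022). The strains were compared by limma 3.58.1 in R 4.3.3 (lmFit, then eBayes with its trend on intensity), DBA/2J minus A/J, two-sided, without covariates, with Benjamini-Hochberg adjustment over all kept probe sets at 0.05. In lists, the kept set of highest mean stood for its gene (13006 genes). The fit was tested on simulated data. Members and lists were chosen with earlier results of these data known. Genes named are all members, a few fixed by name, and from each list up to 4 called and 4 nearest uncalled genes. In skeletal muscle, heart, glia and adipocytes only some of these are printed. Mcam, Cspg4, Notch3 and Ednrb lie outside this rule and were named after their values were seen. Alternatives covered normalization, pseudocount, filter, trend, array weights, gene summary, left-out arrays and blocks by title code. The 3 arrays per strain limit the precision.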

Additional observations from a re-analysis of the deposited data

How the results depend on the processing

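The direction of Acta2, Actg2, Cnn1, Mylk, Tagln and Pdgfrb was kept in all 18 alternatives. These use the leading set, except for the mean of all kept sets of a gene. Some values came near 0: Acta2 was at -0.02 with that mean and -0.03 with array weights, and Mylk at -0.07 with that mean. Of these genes Pdgfrb alone was called in any alternative, with array weights (0.78, adjusted p = 0.0396). Other directions turned. With array weights Myocd was at 0.27 and Smtn at 0.036. Without single arrays Myocd ran from -0.50 to 0.23 (without DBA/2J array 2), Lmod1 from -0.38 to 0.066 (without A/J array 2) and Smtn from -0.34 to 0.26 (without A/J array 2), with 0.0071 without DBA/2J array 2. Without A/J arrays 1 and 3 Des was at 0.22. The cause was not tested. Des 1426731_at, examined this way after its values were seen, ran from -3.59 to -2.25 and passed in 14 of 16 alternatives (lowest adjusted p = 6.1e-05). The exceptions were the fit without A/J arrays 1 and 3, which has 1 A/J array, and the fixed block (adjusted p = 0.098).

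The count of called probe sets was 3007 with array weights, 63 without A/J arrays 1 and 3, 0 with a fixed replicate block and 341 to 1351 without single arrays. The member count was 2 with array weights, and 0 with the upper 40% of probe sets (where Des 1426731_at was filtered out), without A/J arrays 1 and 3 and with the fixed block. Contractile apparatus genes numbered 6 with array weights, 6 with the mean of all sets of a gene, 1 with scaling to one median, 0 without A/J arrays 1 and 3, 0 with the fixed block and 1 to 4 without single arrays. SRF network genes numbered 0 with the upper 40%, with the mean of all sets, without A/J arrays 1 and 3 and with the fixed block, and 0 to 1 without single arrays. Pericyte and PDGF genes numbered 8 with array weights, 5 with the mean of all sets, 0 without A/J arrays 1 and 3, 0 with the fixed block and 0 to 5 without single arrays. Skeletal muscle markers numbered 6 without A/J arrays 1 and 3 and 0 with the fixed block.

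The replicate block uses a code shared by the titles of A/J and DBA/2J array 2 and of both arrays 3. Deviations from the strain means correlated at -0.26 and 0.0351 in those pairs, which does not establish a pairing, and what the codes mark is not stated in the labels, so a shared source of these arrays was not tested further. The fixed block leaves few degrees of freedom, and a random block moved no count by over 1.5 times. The 3 arrays per strain, and dim signals without detection calls, limit every value.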
